A study of Mus musculus with 6 samples.

Results

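The fibrillar collagens are the chains that build the banded fibres of connective tissue, and 10 of their genes were followed here by name: Col1a1, Col1a2, Col2a1, Col3a1, Col5a1, Col5a2, Col5a3, Col11a1, Col24a1 and Col27a1. All 10 were found among the 23154 genes of the deposited count tables by their GENCODE M21 symbols, and 9 had enough reads to be tested. RNA-seq was run on C2C12 cells, an established mouse myoblast line. The HA-NUR77 group (3 libraries) was a stable line carrying pINDUCER20b-HA-NUR77, a doxycycline-inducible construct for the HA-tagged nuclear receptor NUR77, and the GFP group (3 libraries) was a stable line with the same vector holding GFP. Both groups received 1 µg/mL doxycycline for 18 hours, starting 24 hours after seeding in serum medium, so the control cells carry both the vector and the drug. Each library came from its own 10-cm dish, and p-values therefore measure the spread between dishes of 1 line. Only 1 stable line is named for each construct, and the construct and the line that carries it cannot be told apart.

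Fibrillar collagen is made as a procollagen of 3 chains wound into a triple helix, secreted, trimmed of its propeptides and crosslinked outside the cell. Type I collagen joins chains from Col1a1 and Col1a2, type III is made of Col3a1 chains alone, and types V and XI, which mix chains of Col5a1, Col5a2, Col5a3 and Col11a1, start fibrils and limit their width. In muscle these fibres form the layers around fibres and fascicles. Fibroblasts make most of them in the body, while myoblasts in culture also express them.

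Libraries held 13906096 to 22821446 counts. Myoblast markers were present in both groups. Des, the muscle intermediate filament, stood at 3298 ± 381 CPM (counts divided by library size, scaled by trimmed-mean factors) in HA-NUR77 and 2500 ± 429 CPM in GFP (SD, n = 3), and the muscle cadherin Cdh15 at 625 ± 34.1 and 431 ± 31.4 CPM. Transcripts of Nr4a1, the mouse NUR77 gene, stood at 22.6, 19.4 and 25.5 CPM in HA-NUR77 replicates 1 to 3 and at 19.4, 13.5 and 28.2 CPM in GFP, and did not pass the test (edgeR adjusted p = 0.698). The labels do not say from which species the insert came, so this gene does not check the labels, and directions below are those of the libraries as labelled.

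Of the 9 fibrillar collagen chains tested, 8 fell and 0 rose in HA-NUR77, by edgeR's quasi-likelihood test at a Benjamini-Hochberg adjusted p under 0.05 over all 12509 genes tested. Over all genes, 13.2% were called lower and 12.4% higher, 25.6% in all. A fall of at least 2-fold was called for 5 chains, against 3.69% of all genes. The largest fall was 5.24-fold, for Col1a1, and the smallest called fall 1.35-fold, for Col3a1, the most abundant chain. The median log2 fold change of the 9 tested chains was −1.02, against 0.01 over all genes tested, and all 9 values were negative. DESeq2 and limma-voom also called 8 lower and 0 higher, against 15% and 13.3% of all genes lower and 12.9% and 12.4% higher. On unadjusted edgeR p-values under 0.05 the counts were again 8 and 0, against 20.3% of all genes in each direction. Groups did not overlap in CPM for 8 of the 9 chains, all lower in HA-NUR77, where 22.5% of all genes were separated in that direction and 23% in the other. The chains called lower numbered 5 without HA-NUR77 replicate 1, where 903 of all genes were lower, against 1655 with all libraries. They numbered 9 with the replicate number as a block, where 24.6% of all genes were lower and 23.5% higher. RNA of a whole dish does not tell fewer collagen-making cells from less collagen RNA per cell.

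**Figure D1:**
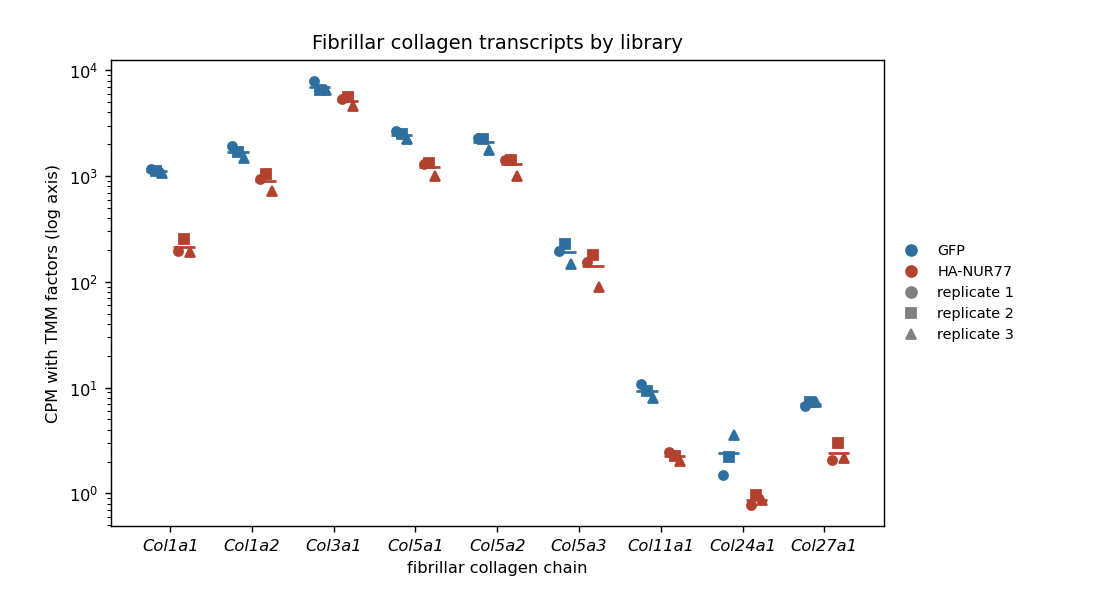
CPM of the 9 tested fibrillar collagen chains in each library, on a log axis, with GFP in blue, HA-NUR77 in red, a marker shape per replicate number and a bar at the mean of 3 libraries. Col1a1 drops from a GFP mean of 1118 CPM to 213 CPM, while the GFP and HA-NUR77 points of Col5a3 overlap.

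Type I collagen is the main fibre of tendon, bone and skin. Col1a1 (ENSMUSG00000001506, GRCm38 chromosome 11, 94936224 to 94953042, plus strand) encodes its α1 chain and stood at 1163, 1113 and 1077 CPM in GFP replicates 1 to 3 and at 198, 252 and 190.1 CPM in HA-NUR77. The highest HA-NUR77 library lay far below the lowest GFP library. Its log2 difference (HA-NUR77 against GFP) was −2.39 (SE 0.12, 95% interval −2.68 to −2.1, edgeR adjusted p = 7.76e-05), and 0.44% of all tested genes had a log2 fold change as low or lower. Col1a2 (ENSMUSG00000029661, chromosome 6, 4504814 to 4541544, plus strand), the gene of the α2 chain, had 1927, 1705 and 1476 CPM in GFP and 930, 1053 and 728 CPM in HA-NUR77. The groups did not overlap, and the fall was 1.88-fold (95% interval 1.46 to 2.43, adjusted p = 0.00743).

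Col3a1 (ENSMUSG00000026043, chromosome 1, 45311538 to 45349706, plus strand), the chain of the fine, compliant type III fibres, took 45.4% to 49.1% of the reads of all 10 chains in GFP and 56.8% to 60.3% in HA-NUR77. It stood at 7934, 6507 and 6491 CPM in GFP and 5331, 5580 and 4588 CPM in HA-NUR77. The groups did not overlap, and the fall was 1.35-fold (95% interval 1.10 to 1.66, edgeR adjusted p = 0.0449). Leaving out HA-NUR77 replicate 1, 2 or 3 ended that call (adjusted p of 0.116, 0.0597 and 0.112), as did leaving out GFP replicate 1 or 2 (0.135 and 0.0765), scaling by library totals or upper-quartile factors (0.0506 and 0.0517) and length and GC offsets (0.0809), and the log2 fold change stayed between −0.49 and −0.32.

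Of the type V chains, Col5a1 and Col5a2 fell and Col5a3 did not pass. Col5a1 (ENSMUSG00000026837, chromosome 2, 27886425 to 28039514, plus strand), whose chain is found in most type V molecules and starts fibril assembly, had 2659, 2504 and 2223 CPM in GFP and 1306, 1324 and 1005 CPM in HA-NUR77. All HA-NUR77 libraries lay well below all GFP libraries, a 2.03-fold fall (edgeR adjusted p = 0.00232). Its exons share 99 and 113 bases with 2810430I11Rik and Gm13372 on the other strand, whose 20 to 29 and 0 to 2 reads per library are few beside its own, and whether the counting used strand is not given. Col5a2 (ENSMUSG00000026042, chromosome 1, 45374321 to 45503282, minus strand), which lies 24614 bases from Col3a1 and is read toward it, had 2286, 2254 and 1784 CPM in GFP and 1430, 1435 and 1000 CPM in HA-NUR77. Replicate 3 was the lowest of both groups, and the fall was 1.64-fold (adjusted p = 0.0215). That call was lost without HA-NUR77 replicate 1 (adjusted p = 0.0515), GFP replicate 1 (0.079) or GFP replicate 2 (0.0624).

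Col5a3 (ENSMUSG00000004098, chromosome 9, 20770050 to 20815067, minus strand) encodes a type V chain of narrower distribution and was the only tested chain that did not pass. Its CPM was 194, 228 and 149 in GFP replicates 1 to 3 and 153, 179 and 90.2 in HA-NUR77, so that the groups overlapped. The log2 fold change was −0.43 (SE 0.25, 95% interval −1.02 to 0.16, edgeR adjusted p = 0.238). Each HA-NUR77 library was lower than the GFP library of the same number, and with the replicate number as a block the log2 fold change was −0.46 (SE 0.07, adjusted p = 0.000581).

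Among the rare chains, Col11a1 (ENSMUSG00000027966, chromosome 3, 114030540 to 114220718, plus strand), the cartilage-type chain that can replace Col5a1 in mixed molecules, had 184, 136 and 117 reads in GFP and 48, 52 and 28 in HA-NUR77. Its level was 10.9, 9.34 and 7.92 CPM against 2.48, 2.27 and 2.01 CPM. The groups were far apart at this low level, with a log2 fold change of −2.05 and an SE of 0.18 (edgeR adjusted p = 0.00038). Col11a2, which encodes another chain of type XI collagen and was picked out here after its values were seen, moved the other way, with 2.31, 2.54 and 2.64 CPM in GFP and 4.76, 3.80 and 6.89 CPM in HA-NUR77 (log2 fold change 1.03, SE 0.25, adjusted p = 0.0216). Its call was lost without HA-NUR77 replicate 1 (adjusted p = 0.056), GFP replicate 1 (0.0823) or GFP replicate 2 (0.0571), and the difference between the 2 genes was not tested.

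Col27a1 and Col24a1 belong to a separate branch of the family with a shorter or interrupted helix. Col27a1 (ENSMUSG00000045672, chromosome 4, 63214004 to 63334991, plus strand), best known from cartilage, had 112, 106 and 108 reads in GFP and 40, 69 and 30 in HA-NUR77. That made 6.64, 7.28 and 7.31 CPM against 2.07, 3.01 and 2.15 CPM, and the fall was 2.90-fold (95% interval 2.16 to 3.89, edgeR adjusted p = 0.00164). GFP libraries differed little from each other. Col24a1 (ENSMUSG00000028197, chromosome 3, 145292472 to 145552011, plus strand), known from developing bone, had 25, 32 and 53 reads in GFP and 15, 22 and 12 in HA-NUR77. Its GFP levels of 1.48, 2.20 and 3.59 CPM were the most widely spread of the 9 tested chains relative to their mean, above 0.776, 0.961 and 0.862 CPM in HA-NUR77. The fall was 2.75-fold (95% interval 1.54 to 4.90, adjusted p = 0.0233), and its call was lost without HA-NUR77 replicate 1 (adjusted p = 0.0804) or 3 (0.0527) and with counts thinned to equal depth (0.0534).

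Col2a1 (ENSMUSG00000022483, chromosome 15, 97975602 to 98004695, minus strand), the type II chain of cartilage, had 2 reads in HA-NUR77 replicate 3, 1 read in GFP replicate 1 and 0 in the other 4 libraries. It did not reach the minimum for testing, and no fold is given.

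**Figure D2:**
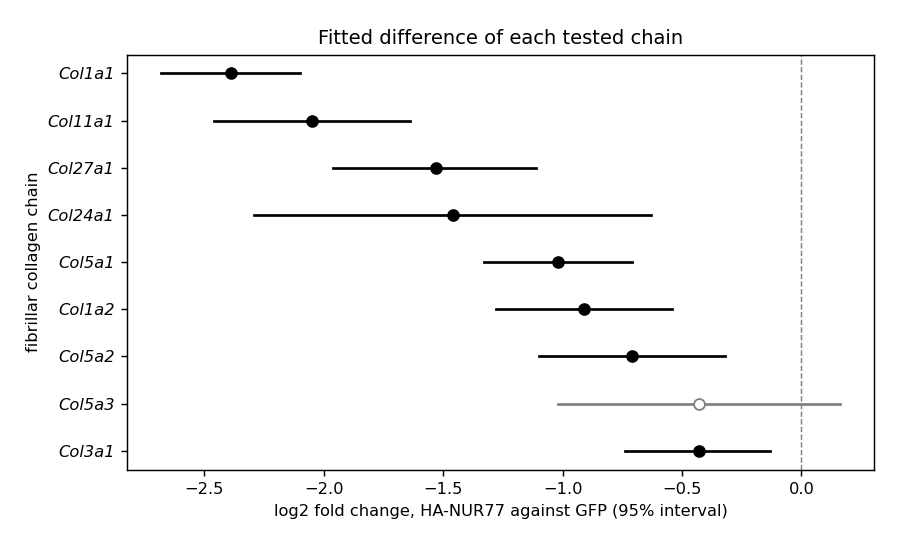
Log2 fold change (HA-NUR77 against GFP) of the 9 tested chains with its 95% interval from the edgeR fit, ordered by size, with filled black points for chains that passed and an open grey point for Col5a3. Points run from −2.39 for Col1a1 to −0.43 for Col3a1 and Col5a3, and the interval of Col5a3, −1.02 to 0.16, crosses 0.

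The order of the chains by level was set on CPM per kilobase of annotated exon. In GFP, Col3a1 led with 711 ± 84.4 (SD, n = 3), followed by Col5a1 with 290 ± 26.0, Col5a2 with 219.8 ± 29.3, Col1a1 with 170.3 ± 6.60 and Col1a2 with 137 ± 18.2. Col5a3 stood at 27.9 ± 5.82, and Col11a1, Col27a1 and Col24a1 all stood under 1, at 0.737 ± 0.118, 0.543 ± 0.0288 and 0.318 ± 0.14. In HA-NUR77, Col3a1 again led with 526 ± 52.6, and Col5a1 (143 ± 21.1) and Col5a2 (134 ± 26.0) lay within their spread of each other. Col1a2 came next with 72.7 ± 13.2, and Col1a1 stood below it at 32.5 ± 5.12. Col5a3 followed at 20.7 ± 6.70, and Col27a1 (0.185 ± 0.0401) and Col11a1 (0.177 ± 0.0185) could not be ordered. Col24a1 stood at 0.114 ± 0.0122. The order depends on the length used, since the annotated exons of Col1a2 cover 12426 bases and its longest protein-coding transcript 5348. Per kilobase of the longest protein-coding transcript, Col1a2 stood at 318 ± 42.2 in GFP, level with Col5a2 (318 ± 42.4) and Col5a1 (293 ± 26.3), and above Col1a1 (188 ± 7.30). On that length in HA-NUR77, Col1a2 (169 ± 30.6) lay between Col5a2 (194 ± 37.6) and Col5a1 (144 ± 21.3).

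Shares of reads describe the make-up of the fibrillar collagen RNA. Together the 10 chains took 1.62%, 1.43% and 1.30% of all counts in GFP replicates 1 to 3 and 0.94%, 0.986% and 0.762% in HA-NUR77. Col1a1 made up 7.19%, 7.77% and 8.15% of the reads of the 10 chains in GFP, and 2.12%, 2.56% and 2.50% in HA-NUR77. Every HA-NUR77 library held a smaller Col1a1 share than every GFP library.

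Ratios between chains within a library do not depend on the scaling between libraries. Reads of Col1a2 per kilobase of exon stood to those of Col1a1 at 0.875, 0.809 and 0.724 in GFP and at 2.48, 2.21 and 2.02 in HA-NUR77. With the longest protein-coding transcript as the length, the same ratios were 1.84, 1.70 and 1.52 against 5.21, 4.64 and 4.25. The ratio was 2.79-fold higher in HA-NUR77 and the groups did not overlap. The length used is the same in every library, so it cannot change either result. The smallest p that 3 against 3 libraries allow is 0.1, and the two-sided exact permutation test gave that value (0.12 adjusted over the 6 ratios tested). Col3a1 to Col1a1 went from 4.56, 3.91 and 4.03 to 18.0, 14.8 and 16.1, a 3.91-fold difference, and Col5a1 to Col1a1 from 1.77, 1.74 and 1.60 to 5.10, 4.06 and 4.09, a 2.59-fold difference, each with the same exact p of 0.1. These 3 ratios share the Col1a1 reads in their denominator.

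Within types V and XI the shifts were smaller or of the opposite sign. Col5a2 to Col5a1 stood at 0.761, 0.797 and 0.710 in GFP and 0.969, 0.959 and 0.881 in HA-NUR77, a 1.24-fold difference without overlap (exact p = 0.1). Col11a1 to Col5a1 was 0.00273, 0.00248 and 0.00237 in GFP and 0.00127, 0.00114 and 0.00133 in HA-NUR77, 2.03-fold lower without overlap (exact p = 0.1). Col5a3 to Col5a1 ran from 0.0833 to 0.113 in GFP and from 0.112 to 0.168 in HA-NUR77, with overlap (exact p = 0.2, also after adjustment). These 3 ratios share the Col5a1 reads.

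**Figure D3:**
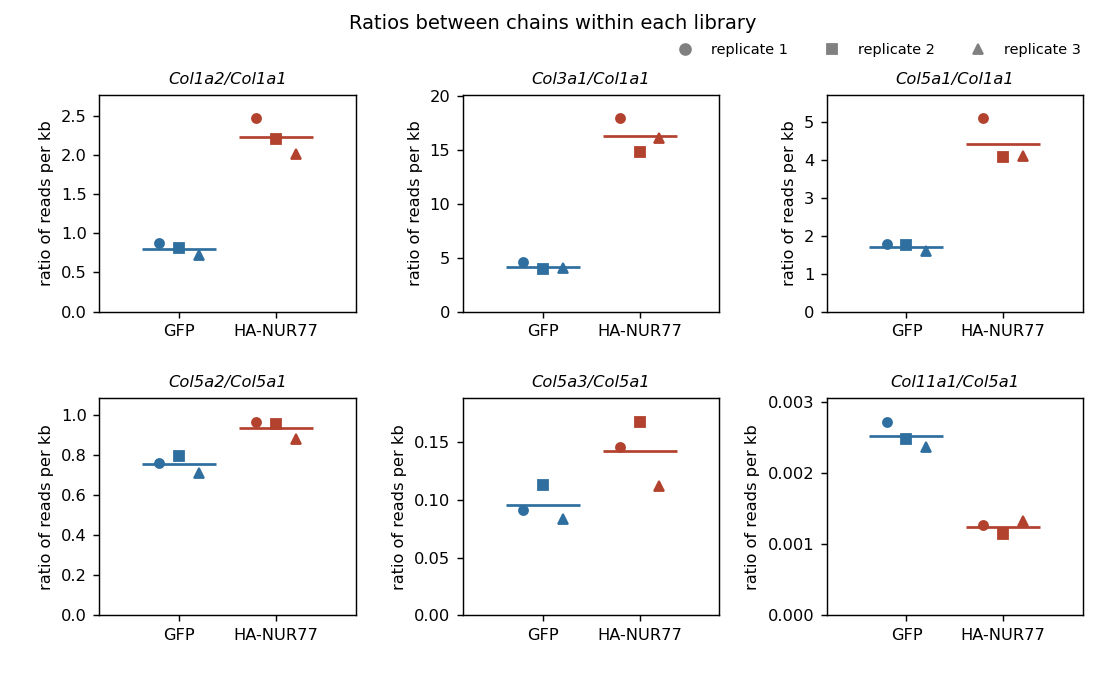
Ratios of reads per kilobase of exon between pairs of chains, 1 panel per ratio with its own linear axis from 0, 1 point per library (marker shape by replicate number) and a bar at the mean of 3. The 3 HA-NUR77 points of Col1a2/Col1a1 (2.02 to 2.48) lie above the 3 GFP points (0.724 to 0.875), and the groups overlap for Col5a3/Col5a1.

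Over the 6 libraries, the tested chain closest in profile to Col1a1 was Col11a1, with a root mean square difference of 0.244 between log2 CPM profiles centred on their own means. Col1a2 was closest to Col5a1 (0.082) and Col5a2 to Col1a2 (0.124). Of 8978 candidates averaging 10 CPM or more, those nearest to Col1a1 were Adam12 (0.125), a metalloprotease of muscle and mesenchyme, Id3 (0.162), an inhibitor of basic helix-loop-helix factors, Tenm4 (0.183), a teneurin, Spata13 (0.198), a guanine exchange factor, and Bmp4 (0.203), a bone morphogenetic protein. Their log2 fold changes ran from −2.62 for Bmp4 to −2.04 for Tenm4, and Adam12 went from a GFP mean of 55.0 CPM to 11.5 CPM. With 2 groups of 3, this likeness is mostly likeness in the size of the group difference.

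Start-site sequences from RefSeq (GRCm38.p6) were matched for 7 of the 10 chains and searched over the 250 bases before the start. Col1a1, the chain with the largest fall, Col2a1 and Col5a2 had no matched start site and were not searched. The 4 shown are Col1a2 and Col3a1, abundant chains with different folds, Col11a1, the rare chain with the largest fall, and Col24a1. Of the 7 searched, only Col24a1 had a match to the NUR77 monomer motif. Capitals mark every match, on either strand, to AAAGGTCA (NBRE, bound by NUR77 as a monomer), to the CCAAT box, to GGGCGG (the GC box of Sp1-type factors), to the TATA box TATAAA and to AANATGGC (a YY1 core). They are printed on the plus strand of the chromosome, the strand of all 4 genes, at chr6:4505368-4505617, chr1:45311288-45311537, chr3:114030290-114030539 and chr3:145292222-145292471 in that order.
Col1a2: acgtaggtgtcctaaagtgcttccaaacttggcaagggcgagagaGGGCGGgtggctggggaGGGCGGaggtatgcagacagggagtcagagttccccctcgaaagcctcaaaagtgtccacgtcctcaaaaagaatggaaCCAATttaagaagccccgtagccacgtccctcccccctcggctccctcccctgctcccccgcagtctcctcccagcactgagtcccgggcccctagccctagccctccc
Col3a1: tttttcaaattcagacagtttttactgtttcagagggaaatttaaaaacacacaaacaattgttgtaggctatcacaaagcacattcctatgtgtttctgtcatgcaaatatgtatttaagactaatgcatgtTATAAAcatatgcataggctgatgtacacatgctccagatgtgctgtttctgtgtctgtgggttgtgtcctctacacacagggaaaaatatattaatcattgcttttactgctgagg
Col11a1: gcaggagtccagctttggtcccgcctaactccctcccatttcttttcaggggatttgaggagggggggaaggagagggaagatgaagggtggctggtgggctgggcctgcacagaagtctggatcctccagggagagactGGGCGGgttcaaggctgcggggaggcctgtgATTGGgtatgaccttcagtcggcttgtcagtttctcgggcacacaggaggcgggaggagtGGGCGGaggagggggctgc
Col24a1: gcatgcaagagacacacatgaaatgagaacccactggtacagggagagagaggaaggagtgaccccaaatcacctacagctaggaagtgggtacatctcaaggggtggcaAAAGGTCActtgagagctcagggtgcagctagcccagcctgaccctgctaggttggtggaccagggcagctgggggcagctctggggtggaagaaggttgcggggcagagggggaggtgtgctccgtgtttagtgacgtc
In these windows NBRE was matched once, in Col24a1, starting 140 bases before the start, and 1.34% of all 32851 promoters of the table hold it in the same window. CCAAT was found once each in Col1a2 (109 bases before the start), Col5a3 (122) and Col11a1 (79), against 33.8% of all promoters. GGGCGG was found in Col1a2, Col5a1, Col5a3, Col11a1 (each 2 matches) and Col27a1 (1 match), against 32.7%. These windows held 62%, 76.4%, 62.8%, 62.4% and 59.6% G and C in that order, above the 52.4% median of all promoters. Col24a1, without a GGGCGG match, held 58%. TATAAA was found only in Col3a1 of the 7, 117 bases before the start, and 12.4% of all promoters hold it anywhere in the window. The Col3a1 window had 35.2% G and C against a median of 52.4% over all promoters. The YY1 core was found in none of the 7 (3.91% of all). A match or its absence in these letters does not show binding.

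Of 25 listed genes that fold and export procollagen, 24 were tested, 11 fell, 0 rose and 13 did not pass by edgeR. Their median log2 fold change was −0.30, and of all genes 13.2% fell and 12.4% rose. At an unadjusted p under 0.05, 14 were lower and 2 higher (20.3% of all genes each way). DESeq2 called 13 lower and 1 higher (15% and 12.9% of all genes), and limma-voom 12 and 0 (13.3% and 12.4%). P4ha3, a subunit of prolyl 4-hydroxylase, averaged 7.88 ± 0.569 CPM in GFP and 3.04 ± 1.01 CPM in HA-NUR77 (SD, n = 3, edgeR adjusted p = 0.00618), P3h3, a prolyl 3-hydroxylase family member, 13.9 ± 3.00 and 5.89 ± 0.721 CPM (adjusted p = 0.00359) and Fkbp7, a prolyl isomerase of the endoplasmic reticulum, 53.4 ± 5.26 and 37.0 ± 3.24 CPM (adjusted p = 0.00991). Sparc, a collagen-binding glycoprotein and the most abundant of the list per length, fell 1.5-fold (adjusted p = 0.0124; 0.0541 without HA-NUR77 replicate 1). The collagen chaperone Serpinh1, named here after its values were seen, fell 1.42-fold (adjusted p = 0.0222), a call lost without HA-NUR77 replicate 1 (0.0767) and without either of GFP replicates 1 (0.0763) and 2 (0.0706), while P4ha1 (184 ± 7.52 and 183 ± 14.7 CPM) and the shared subunit P4hb (879 ± 89.3 and 802 ± 100 CPM) did not pass. Leaving out 1 library brought the fallen genes down to 4 (HA-NUR77 replicate 1), 6 (its replicate 3), 6 (GFP replicate 1) or 5 (GFP replicate 2). Lower calls over all genes dropped in the same fits, from 1655 to 903, 1255, 850 and 1249 in that order. With the block 16 were lower and 2 higher (24.6% and 23.5% of all genes).

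Outside the cell, 11 of 14 listed genes of propeptide cleavage and crosslinking were tested, of which 4 fell and 1 rose (median log2 fold change −0.12). Of all genes 13.2% fell and 12.4% rose. Adamts2, the protease that removes the N-propeptide of types I to III, fell 2.29-fold (edgeR adjusted p = 9.51e-05), with means of 138 ± 7.26 CPM in GFP and 60.2 ± 1.24 CPM in HA-NUR77. The crosslinking oxidases Lox and Loxl1 fell 2.03-fold and 1.95-fold (adjusted p = 0.00263 and 0.00126), and the C-propeptide protease Bmp1 1.56-fold (0.00287). The 1 gene that rose was Pcolce2, an enhancer of C-propeptide cleavage, at 12.8 ± 0.667 CPM in GFP and 20.1 ± 1.82 CPM in HA-NUR77. With the block 5 were lower and 3 higher (24.6% and 23.5% of all genes). Without HA-NUR77 replicate 1 or any 1 GFP library, 2 were higher. Over all genes, 672 were higher without HA-NUR77 replicate 1, and 642, 927 and 1489 without GFP replicates 1, 2 and 3. In the main fit and with the block, the counts of higher genes lay near the shares of all genes.

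Of 17 listed fibril-associated matrix proteins, 15 were tested, 7 fell, 1 rose and 7 did not pass, with a median of −0.55. Of all genes 13.2% fell and 12.4% rose. The gene that rose was Col11a2 (above), itself a fibrillar chain that was placed in this list. Postn, periostin, fell 6.48-fold (edgeR adjusted p = 0.000537; means of 891 ± 210 CPM in GFP and 138 ± 36.1 CPM in HA-NUR77), Col12a1, a collagen that sits on type I fibrils, 3.31-fold and Thbs1, thrombospondin, 2.94-fold. Fn1, fibronectin, the most abundant of the list per length, fell 1.76-fold from 16369 ± 1249 CPM. The small proteoglycan Bgn fell 2.06-fold, while Dcn, a related proteoglycan that binds fibrils, averaged 362 ± 46.5 CPM in GFP and 393 ± 86.2 CPM in HA-NUR77 and did not pass. With the block, 11 were lower and 1 higher (24.6% and 23.5% of all genes).

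Among the collagen-binding integrin α subunits, Itga11 and Itga1 fell, Itga10 did not pass (14.8 ± 1.58 CPM in GFP and 12.5 ± 0.489 CPM in HA-NUR77, edgeR adjusted p = 0.119, and 0.039 with the block), and Itga2 was listed at 0. Itga11, the integrin subunit that binds fibrillar collagen on mesenchymal cells, fell from 111 ± 11.8 to 12.7 ± 1.54 CPM (SD, n = 3), or 8.69-fold (edgeR adjusted p = 4.11e-05). Itga1 fell from 3.00 ± 0.197 to 0.506 ± 0.190 CPM (adjusted p = 0.00125), and Mrc2, an uptake receptor for collagen, 1.70-fold (adjusted p = 0.0094). The common partner of these integrin subunits, Itgb1, the most abundant of the list per length, stood at 1950.3 ± 137 and 1669 ± 99.7 CPM and did not pass (adjusted p = 0.122; 0.0106 with the block), nor did the collagen-binding kinases Ddr1 and Ddr2 (adjusted p = 0.277 and 0.358), although Ddr1 was higher with length and GC offsets (0.0459). Of 10 listed, 7 were tested (median −0.25), and 3 fell and 0 rose by edgeR, against 13.2% and 12.4% of all genes. Unadjusted p-values under 0.05 gave 5 and 0 (20.3% of all genes each way). DESeq2 called 4 lower and 0 higher (15% and 12.9% of all genes), and limma-voom 3 and 0 (13.3% and 12.4%). With the block 5 were lower and 0 higher (24.6% and 23.5% of all genes).

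Of 10 listed genes of collagen breakdown and its inhibitors, 6 were tested, 2 fell and 0 rose by edgeR (median −0.12). Across all genes 13.2% fell and 12.4% rose. Taking unadjusted p-values under 0.05, 3 were lower and 0 higher (20.3% of all genes each way). DESeq2 called 3 lower and 0 higher (15% and 12.9% of all genes), and limma-voom 2 and 0 (13.3% and 12.4%). Mmp14, a membrane collagenase, fell 2.04-fold (edgeR adjusted p = 0.00379; means of 640.5 ± 122 and 315 ± 33.3 CPM). Timp1, an inhibitor of these proteases, fell 1.38-fold (adjusted p = 0.0227), a call lost without GFP replicate 1 (0.0665) or GFP replicate 2 (0.0686). Timp2, another inhibitor, did not pass by edgeR (adjusted p = 0.0584) but was lower by DESeq2 (0.0041) and with the block (0.00256). Under the block 3 genes of the list were lower and 1 higher (24.6% and 23.5% of all genes).

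Of 30 listed regulators of collagen transcription, 27 were tested, 11 fell, 1 rose and 15 did not pass, with a median of −0.30. The shares of all genes were 13.2% lower and 12.4% higher. Tgfb2 fell from 78.0 ± 10.1 to 27.6 ± 4.57 CPM and Tgfb1 from 94.6 ± 4.75 to 56.2 ± 8.53 CPM (by edgeR, adjusted p = 0.000656 and 0.00425), both ligands of the pathway best known for raising collagen genes. The factor Ets1 fell 1.68-fold (adjusted p = 0.00582), and the coactivator Wwtr1, the most abundant of the list per length, 1.23-fold (adjusted p = 0.0352), a call that ended on leaving out HA-NUR77 replicate 1 (0.125) or 2 (0.0726) and any of GFP replicates 1 (0.0577), 2 (0.112) and 3 (0.0578). Sox9, which drives cartilage collagens, was the 1 gene that rose, from 52.3 ± 1.00 to 64.1 ± 1.31 CPM (adjusted p = 0.0128; 0.0618 without HA-NUR77 replicate 1), and Yy1 did not pass. With the block 18 were lower and 2 higher (24.6% and 23.5% of all genes). On leaving out HA-NUR77 replicate 1, 7 were lower, and 6 on leaving out either of GFP replicates 1 and 2. Over all genes, 903, 850 and 1249 were lower in those fits in that order, against 1655 with all libraries.

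**Figure D4:**
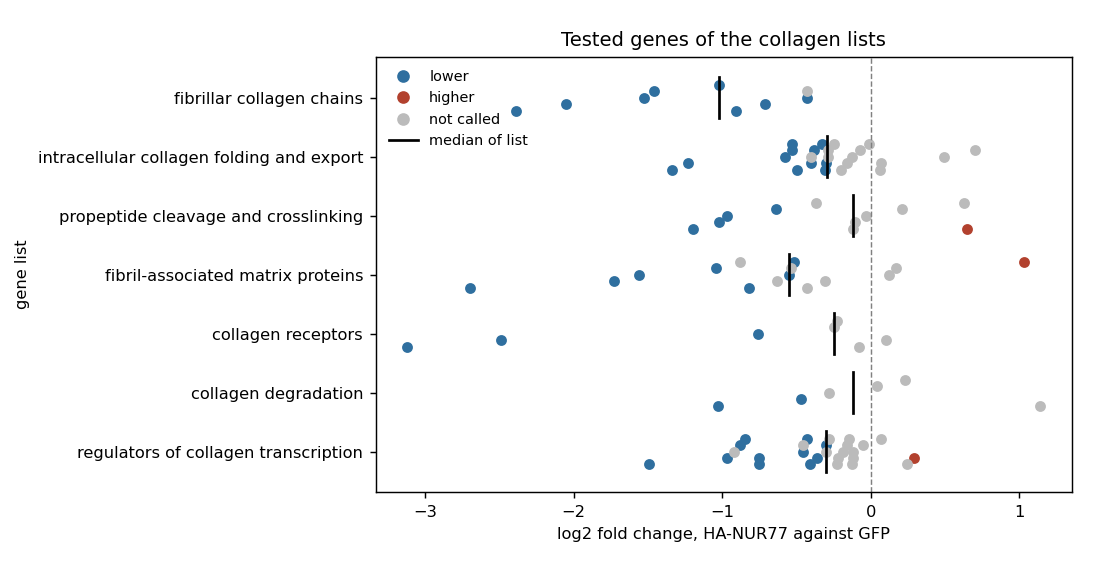
Log2 fold change (HA-NUR77 against GFP) of every tested gene of the fibrillar chains and the 6 related lists, with called lower genes in blue, called higher genes in red, others in grey and a bar at each list's median. The medians run from −1.02 for the fibrillar chains to −0.12 for the cleavage and degradation lists.

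Markers of muscle and of other cell types differed in direction, and many did not pass. The shares of all genes were 13.2% lower and 12.4% higher, and 24.6% and 23.5% with the block. Of 7 genes of differentiated muscle, 1 was higher (Myh3, edgeR adjusted p = 0.022, and 0.0542, 0.0514 and 0.0575 on leaving out HA-NUR77 replicate 2, its replicate 3 or GFP replicate 1) and 6 did not pass, and 6 were higher with the block. Acta1 was also higher by DESeq2 (adjusted p = 0.00963), and in edgeR with no filter (0.0299), library totals (0.0492) or upper-quartile factors (0.0489). Without GFP replicate 3 both Acta1 (0.0151) and Tnnt3 (0.0379) were higher. Their summed level was 8050 to 11901 CPM in GFP and 12765 to 15397 CPM in HA-NUR77, with most of it from Acta1, Myh3 and Tnnt3 (3818 ± 801, 2872 ± 477 and 1527 ± 438 CPM in GFP and 5383 ± 487, 4405 ± 458 and 2127 ± 489.6 CPM in HA-NUR77, SD, n = 3). The 6 myoblast markers summed to 2966 to 3915 CPM and 4190 to 4870 CPM, with 1 higher (Cdh15), and with the block 3 were higher and 2 lower. Des was also higher by DESeq2 (adjusted p = 0.0317) and in edgeR without GFP replicate 3 (0.048). Of 7 fibroblast and mesenchymal progenitor markers, 5 were tested, 2 fell, 3 rose, and Thy1 and Tcf21 were listed at 0. Ly6a rose from 123 ± 23.3 to 286 ± 14.1 CPM and Cd34 and Dpt rose 1.76-fold and 2.83-fold, while Pi16 fell from 28.8 ± 0.578 to 19.4 ± 1.59 CPM and Pdgfra from 24.8 ± 1.56 to 12.7 ± 1.22 CPM (edgeR adjusted p = 0.00085). Dpt was rare, with 17 reads in all in GFP and 59 in HA-NUR77. The Cd34 call was lost with no filter (adjusted p = 0.0757) and on leaving out HA-NUR77 replicate 2 (0.0805) or 3 (0.0652) or GFP replicate 1 (0.139) or 3 (0.0942), and the Dpt call on leaving out HA-NUR77 replicate 1 (0.0574) or GFP replicate 2 (0.0555). The summed level was 167 to 215 CPM in GFP and 319 to 357 CPM in HA-NUR77, and without Ly6a it was 63.8 to 68 CPM in GFP and 48.6 to 58.6 CPM in HA-NUR77. Tendon genes, led by Scx and Fmod, summed to 73.9 to 99.7 and 76.4 to 85.7 CPM and neither passed (edgeR adjusted p = 0.504 and 0.087), with Fmod lower under the block. Cartilage markers other than Sox9 were at or near 0, with Acan, Matn1 and Chad listed at 0, and the 6 bone markers, with Ibsp at 0, summed to at most 2.1 CPM in any library, and Phex, the only one tested, did not pass. The 5 macrophage markers summed to 0.83 to 1.58 CPM in GFP and 1.94 to 3.31 CPM in HA-NUR77, and of 2 tested Csf1r rose 3.28-fold (edgeR adjusted p = 0.0443) and Cd68 did not pass. Csf1r had 19 reads in all in GFP and 78 in HA-NUR77. Its call was lost on leaving out HA-NUR77 replicate 1 (0.136) or 2 (0.0747) or GFP replicate 1 (0.113) or 3 (0.08). Whether any of these markers has a part in the collagen differences was not tested.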

How the data were processed

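RNA was extracted with TRIzol and made into stranded mRNA libraries, per the labels' protocols. The deposited values are whole-number read counts per gene, 1 table per library, and TopHat2 2.1, HTSeq, DESeq2 and the mm10 build are named in the submitters' processing notes. The strand setting and annotation release are not given in the sources used here. Gene IDs were paired with GENCODE M21 symbols (22888 of 23154 matched). Counts were fitted in edgeR 4.0.16 (R 4.3.3) with trimmed-mean factors, a minimum count of 10 and a robust quasi-likelihood test of 12509 genes, Benjamini-Hochberg adjusted, and the scripts were tested on simulated data. CPM values are scaled by the same factors, and intervals are at 95%. Counts run from 13906096 to 22821446 per library, and precision did not follow the reads of a gene alone. Col5a3 had an SE of 0.25 with 8314 reads in HA-NUR77 and 8788 in GFP, and Col11a1 an SE of 0.18 with 128 and 437. Alternatives were limma 3.58.1 (voom), DESeq2 1.42.0, other scalings and filters, the replicate block, thinned counts, length and GC offsets, and leaving out each library.

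Deviations of same-numbered libraries from their group means correlated at 0.25, 0.551 and 0.475, each over 0.1. Pairing by number was therefore added only as an alternative, the block. The main edgeR p-values compare the groups without it. No label states such a pairing. The chains and gene lists were chosen with earlier results of these data known. Named by rule were all chains, the 3 genes with the smallest adjusted p and the most abundant per length of each list, the 2 most abundant of each marker list, the 5 nearest to Col1a1, and Nr4a1. Serpinh1, P4ha1, P4hb, Bmp1, Pcolce2, Bgn, Dcn, Col11a2, Ddr1, Ddr2, Itga10, Yy1, Myh3, Cd34, Dpt, Pdgfra and Csf1r were named outside it, after their values were seen.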

Additional observations from a re-analysis of the deposited data

How the results depend on the processing

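Under the replicate block, genes called lower went from 1655 to 3071 and higher from 1549 to 2942 (2697 and 3236 with length and GC offsets added). With the block, list genes called went from 38 to 58 lower and from 3 to 9 higher (also 9 with the offsets), and the chains called lower from 8 to 9. Leaving out 1 library gave 850 to 1572 genes lower and 642 to 1489 higher, 5 to 8 chains lower, and 25 to 40 list genes lower and 2 to 5 higher. The 5 chains were those without HA-NUR77 replicate 1. Thinned counts gave 5 list genes higher. The chains called lower numbered 7 with library totals, upper-quartile factors, length and GC offsets or thinned counts, and 8 with no filter or DESeq2 size factors. They also numbered 7 with a minimum count of 50, where Col24a1 was filtered out and the other calls were kept. Col1a1, Col1a2, Col5a1, Col11a1 and Col27a1 kept their direction and call in all 17 alternatives. The log2 fold change of Nr4a1 reversed to −0.08 without GFP replicate 2 (range −0.08 to 0.44 over the libraries left out). Genes near 0 that did not pass also changed sign: P4ha1 (−0.01) to 0.0 with library totals, 0.01 with upper-quartile factors and −0.07 to 0.04 over the libraries left out, Dcn (0.12) to −0.07 without HA-NUR77 replicate 3 (range −0.07 to 0.24), and Ddr2 (−0.08) to 0.03 with length and GC offsets, with or without the block. The cause was not tested. No chain ratio reversed, and the protein-coding transcript length was added as an alternative after seeing the data. A change of length moves the level of a ratio and cannot move its difference between groups. Depth limits Col24a1 and Col2a1 most.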

Other observations

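Tll1, a protease related to Bmp1 that was picked out after its values were seen, did not reach the minimum for testing, with 36 reads in all in HA-NUR77 and 4 in GFP. Its level was 0.465, 0.742 and 0.718 CPM in HA-NUR77 and 0.119, 0.0687 and 0.0677 CPM in GFP.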
